A study of Dascyllus aruanus with 17 samples.

Results

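Light at night was compared with darkness late in the night in whole brains of *Dascyllus aruanus*, a small damselfish that lives in groups around branching corals. The compared libraries were the 4 ALAN night brains (artificial light at night) and the 4 control night brains, chosen by the treatment and sampling time in the sample titles. They are 8 of the 17 samples of the series, of which 14 have counts. Of the 21805 assembled features in the count table, 20782 passed a filter on low counts and were tested, and they are described here gene by gene and by groups of genes that share a function.

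Per the labels, all fish were wild-caught in Japan with their coral colonies and habituated for 96 h. Over the next 72 h, ALAN fish had dim white light through the dark hours and control fish had a natural light-dark cycle. Night brains were taken at ZT23 (zeitgeber time in hours, shortly before sunrise), when the lamps of the ALAN fish stood against darkness for the controls. The ALAN day (n = 3) and control day (n = 3) brains, taken at ZT11 under daylight, give day values beside the night values, and also share the estimate of spread behind the night p-values. Each library held 1 brain, and the sources used here do not give the colony or sex of any fish. Light was given to whole colonies, so brains of 1 group may come from the same colony, and colony and treatment cannot be told apart.

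Immediate-early genes are transcribed within minutes of a stimulus, without new protein synthesis. In mammalian neurons, calcium and cAMP signals that follow firing switch them on through the transcription factors SRF and CREB. Many of them encode transcription factors, such as FOS, EGR1 and NPAS4, which in turn act on a slower set of effector genes for synapses, secretion and signalling. In fish, light also acts directly on brain photopigments and on light-inducible clock genes such as *per2* and some cryptochromes, as known from zebrafish.

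The 8 night libraries held between 17941030 and 20432119 expected counts in ALAN brains and between 18050154 and 23051193 in control brains. Levels are in CPM, the counts after scaling of every library to the same nominal size. CPM does not correct for transcript length, so levels are compared between libraries and not between genes. Defining markers of neurons were all above 0, and their 18 tested features summed to 3423 to 3811 CPM in ALAN night and 3112 to 3602 CPM in control night libraries.

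Some libraries stood apart in markers of photoreceptors or of the pituitary. The photoreceptor markers are those of eye or pineal, and which tissue they came from was not tested. The 34 tested photoreceptor markers summed to 149, 199, 137 and 115 CPM in ALAN night libraries 1 to 4, against 172, 509.9, 189.6 and 2115 CPM in control night libraries 1 to 4. Control night libraries 2 and 4 were thus above every other night library. The 7 pituitary markers summed to 1412 CPM in ALAN night library 2 and 484 CPM in control night library 4, against 62.4 to 66.9 CPM in the other ALAN and 71.7 to 112 CPM in the other control libraries. The summed levels of muscle, liver and blood markers overlapped between the groups, as the plot of marker sums shows. For muscle, ALAN night library 1 at 207 CPM was above control night library 2 at 203 CPM. The other ALAN libraries were below every control.

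**Figure D1:**
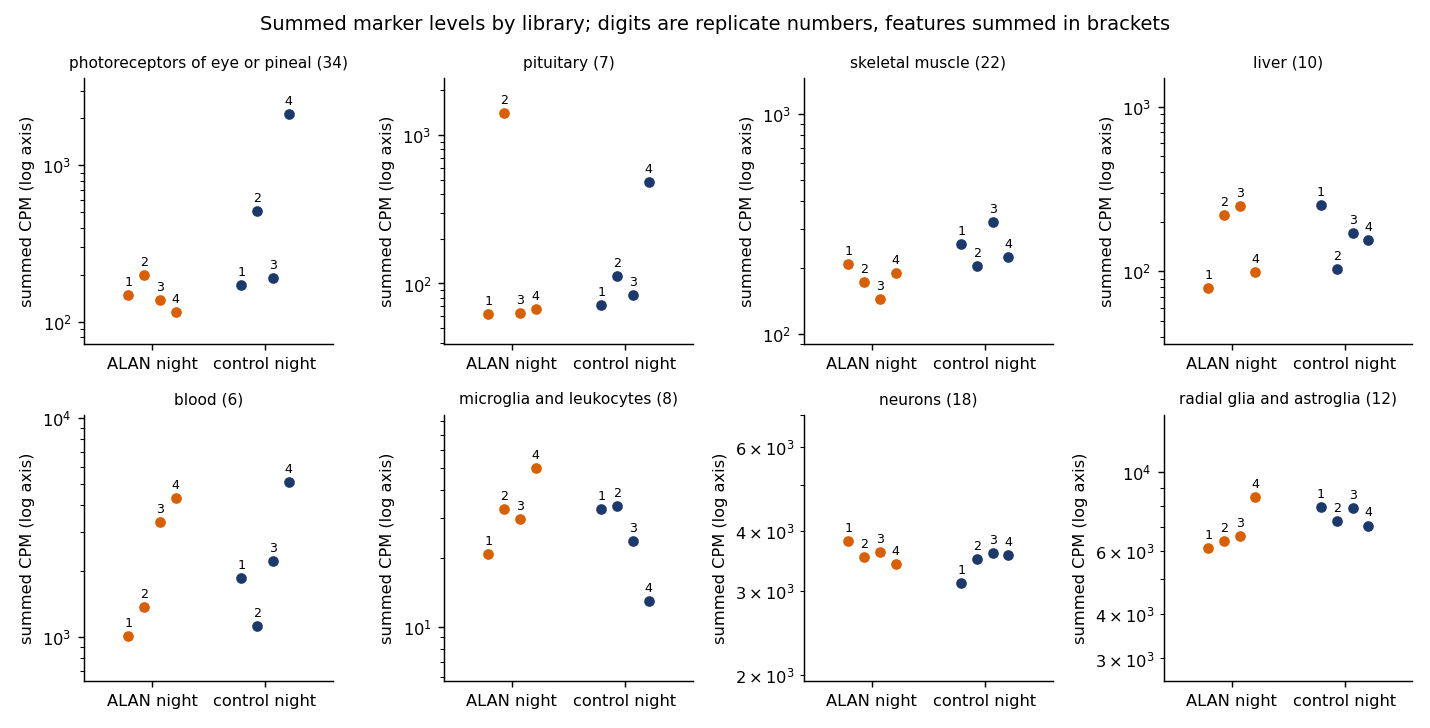
Summed CPM of marker features (log axis) in each night library, with ALAN night on the left and control night on the right of each panel. Each point is 1 library with its replicate number, and control night libraries 2 and 4 lie above the other 6 for photoreceptor markers, at 509.9 and 2115 CPM.

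To determine which transcripts differed between lit and dark nights, the groups were compared with edgeR's quasi-likelihood test, adjusted over all tested features. In ALAN night brains 6 features rose at an adjusted p under 0.05 (0.0289% of those tested). They were the activity-induced transcription factors *FOS*, *EGR1* and *NPAS4*, a pair of features named *RTN4RL2* (a receptor of the Nogo receptor family), and an unnamed feature described as interleukin-1 receptor-like. All 4 ALAN night brains lay above all 4 control night brains for each of the 6. As for lower features, edgeR called 0 (smallest adjusted p 0.562), against 13 by DESeq2 and 0 by limma-voom. DESeq2 called 41 features in all, 28 of them higher. The 5 calls of limma-voom were the edgeR calls without *RTN4RL2* DN8334 (limma-voom adjusted p 0.0855), and no other feature. Below, called, rose and fell refer to edgeR unless DESeq2 or limma-voom is named. An unadjusted p under 0.05 was found for 959 features (4.61%), 483 of them higher (2.32%) and 476 lower (2.29%). The median log2 fold change over all tested features was −0.01. In whole tissue, a difference in the number of cells of a type and a difference in RNA per cell cannot be told apart.

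**Figure D2:**
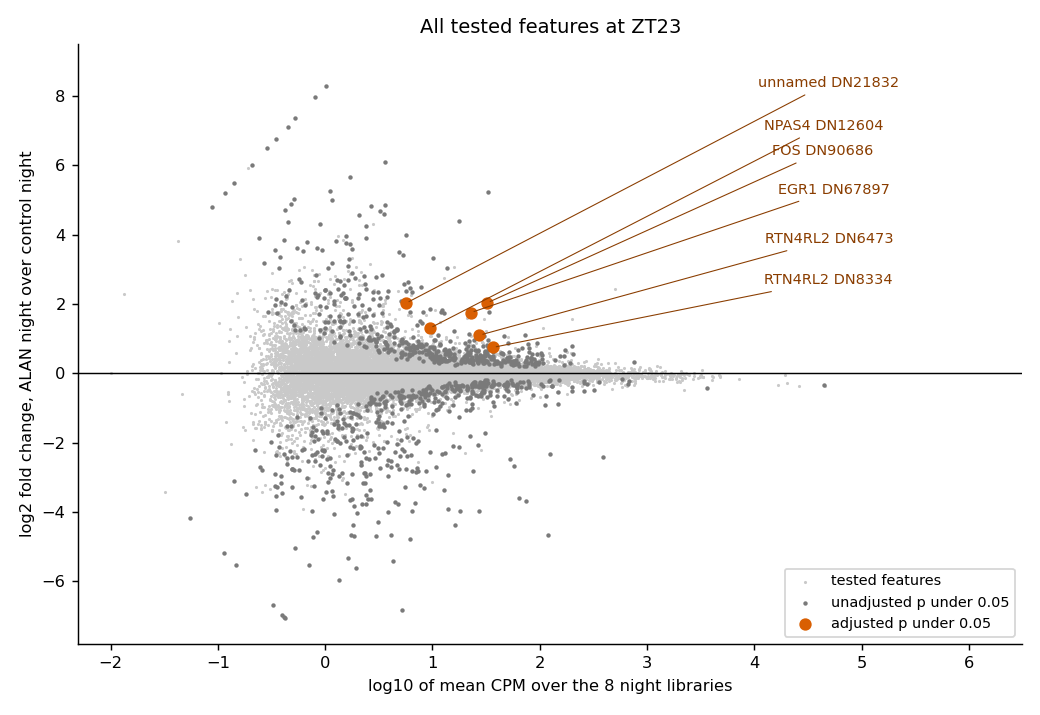
Log2 fold change of ALAN night over control night against mean CPM over the 8 night libraries (log10), with 1 point for each of the 20782 tested features. Orange points are the 6 features with an adjusted p under 0.05, all above 0, and dark grey points are those with an unadjusted p under 0.05 in either direction.

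Of the 6 calls, 3 were immediate-early transcription factors. *FOS*, a subunit of the AP-1 factor and the classic marker of recently active neurons, was at 65.1, 40.1, 59.5 and 42.4 CPM in the ALAN night libraries, against 12.5, 11.2, 11.5 and 15.3 CPM in the control night libraries. The lowest ALAN brain was thus well above the highest control. The log2 fold change of *FOS* was 2.03 (SE 0.2), with an edgeR adjusted p of 0.00211. *EGR1* (DN67897), a zinc finger factor induced by synaptic activity in mammals, was at 36.2, 30.0, 40.6 and 33 CPM under ALAN, against 8.03, 9.61, 10.1 and 13.7 CPM in controls. Its log2 fold change was 1.75 (SE 0.23, edgeR adjusted p 0.0153), with no overlap between the groups. *NPAS4* (DN12604), a factor induced by calcium entry in mammalian neurons, was at 14.7, 12.5, 13.8 and 12.6 CPM under ALAN, against 4.68, 4.7, 5.6 and 6.71 CPM in controls. Its 4 ALAN values lay within a narrow range, and the log2 fold change was 1.3 (SE 0.16, edgeR adjusted p 0.0147).

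*EGR1* and *NPAS4* each have another tested feature with the same name. *EGR1* DN8733 was at 137, 125, 118 and 118 CPM under ALAN, against 87.9, 83.8, 86.9 and 89.7 CPM in controls. These groups did not overlap either, but the log2 fold change was 0.52 (SE 0.135) with an edgeR adjusted p of 0.888. *NPAS4* DN7275 was at 24 to 26.1 CPM in all 4 ALAN brains, against 10.4, 10.3, 27.0 and 14.6 CPM in controls. Control night library 3 was above every ALAN brain here, and the log2 fold change was 0.7 (edgeR adjusted p 0.998). With counts summed by gene name, *EGR1* had a log2 fold change of 0.72 (edgeR adjusted p 0.301) and *NPAS4* of 0.88 (edgeR adjusted p 0.649). The calls for these genes therefore belong to 1 feature of each pair, and similar copies may have shared their reads.

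Several close relatives were higher without passing the adjusted threshold in edgeR. DESeq2 called *FOSB* (DESeq2 adjusted p 0.00183), *EGR2* DN13711 (0.000462) and *NR4A1* DN9123 (0.0418). By limma-voom none of these 3 was called, with an unadjusted limma-voom p of 0.000831 for *FOSB* and 0.0026 for *EGR2* DN13711. *FOSB*, another AP-1 subunit, was low throughout, at 1.61, 2.15, 1.61 and 1.77 CPM under ALAN, against 0.578, 0.701, 0.607 and 0.599 CPM in controls. Its log2 fold change was 1.52 (SE 0.242), and its edgeR adjusted p of 0.0724 was the smallest among uncalled features. *EGR2* DN13711, a zinc finger factor related to EGR1, was at 10.1, 16.8, 8.14 and 12.2 CPM under ALAN, against 4.16, 4.3, 3.45 and 5.17 CPM in controls (log2 fold change 1.46, edgeR adjusted p 0.207). With counts summed by gene name, *EGR2* had a log2 fold change of 1.12 (edgeR adjusted p 0.649). *NR4A1* DN9123, an orphan nuclear receptor induced by activity in mammals, was at 3.83 to 7.46 CPM under ALAN, against 1.1 to 3.46 CPM in controls (log2 fold change 1.36, edgeR adjusted p 0.865). The groups did not overlap for any of these 3.

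*IER2*, a short nuclear protein of the early growth factor response, was at 40.9, 39.8, 46.0 and 39.6 CPM under ALAN, against 14.7, 27.1, 27.1 and 25.1 CPM in controls. Control night library 1 was the low one. The log2 fold change of *IER2* was 0.82, and 0.65 without that library (edgeR adjusted p 0.439 and 0.199). With all libraries, DESeq2 called *IER2* (DESeq2 adjusted p 0.00523) and limma-voom did not (limma-voom adjusted p 0.33). An unnamed zinc finger feature, DN4098, was at 95.9, 103, 96.2 and 102 CPM under ALAN, against 50.1, 43.0, 45.2 and 44.6 CPM in controls. The spread within either group was small beside the gap (log2 fold change 1.12, edgeR adjusted p 0.205, DESeq2 adjusted p 0.000229). DN2161, an unnamed feature whose best match is described as c-Fos, was at 35 to 44.8 CPM under ALAN, against 19.8, 21.7, 36.4 and 23.2 CPM in controls, with control night library 3 inside the ALAN range (log2 fold change 0.67, edgeR adjusted p 0.888).

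**Figure D3:**
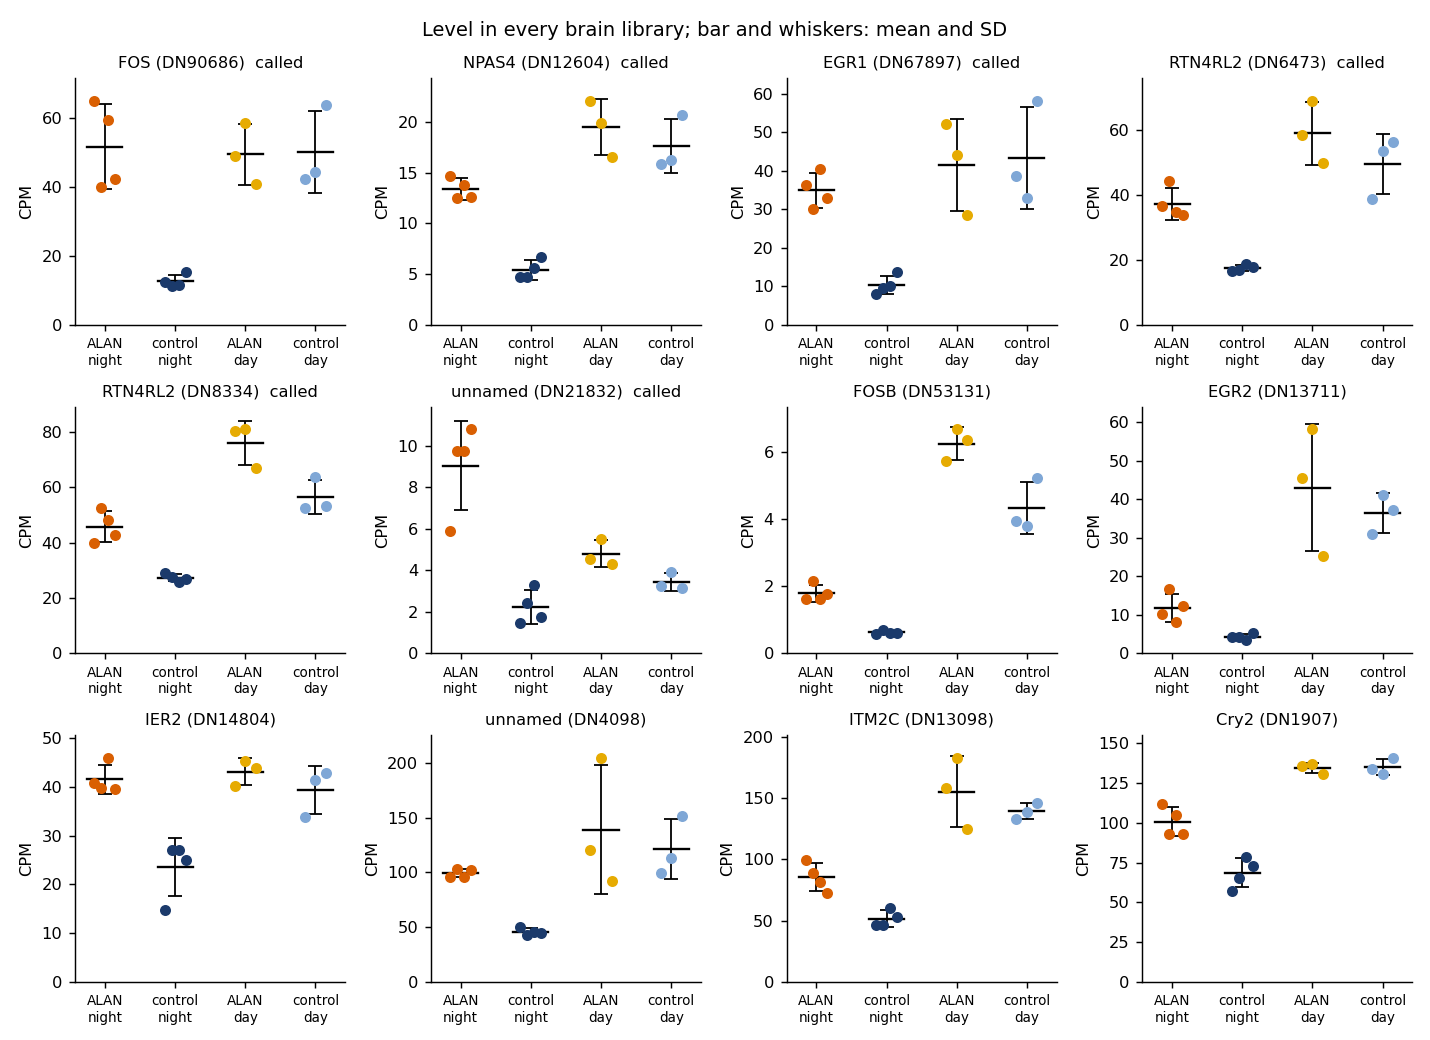
CPM of 12 features in every library of the ALAN night, control night, ALAN day and control day groups, each panel with its own linear axis from 0. Points are single brains, with the mean and SD of each group, and *FOS* lies between 40.1 and 65.1 CPM in ALAN night and between 11.2 and 15.3 CPM in control night brains.

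Over the whole list of immediate-early transcription factors, all 33 features were tested, and 27 had a log2 fold change above 0 (48.8% of all tested features did). Of the 33, 3 rose, 11 were higher at an unadjusted p under 0.05 (33.3%, against 2.32% of all features) and 0 were lower. In 10 of them all ALAN night brains were above all controls (30.3%), against 1.32% of all features. The list was chosen with earlier results of these data known, so these shares are a description. The list's median log2 fold change was 0.24, and it lay between 0.19 and 0.34 as each night library was left out. The list was not uniform. *JUNB*, an AP-1 partner, was at 230.3, 248, 231 and 196 CPM under ALAN, against 188, 199, 218 and 176 CPM in controls, and the groups overlapped (log2 fold change 0.21). *JUND*, another AP-1 partner, had a feature (DN13545_c0_g1) with a small but separated log2 fold change of 0.28 (edgeR adjusted p 0.888, DESeq2 adjusted p 0.0337). *EGR4* was at 21.5 to 24.2 CPM against 16.8 to 19.5 CPM (log2 fold change 0.33), whereas *EGR3* was at 9.07 to 15.7 CPM under ALAN and 12.1 to 14.8 CPM in controls (log2 fold change −0.24). *JUND*, *EGR3* and *EGR4*, and likewise *SIK1*, *SIK2*, *MAG*, *NR1D2*, *PER1*, *PER3* and the other *ITM2C* feature, were named after their values were seen.

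**Figure D4:**
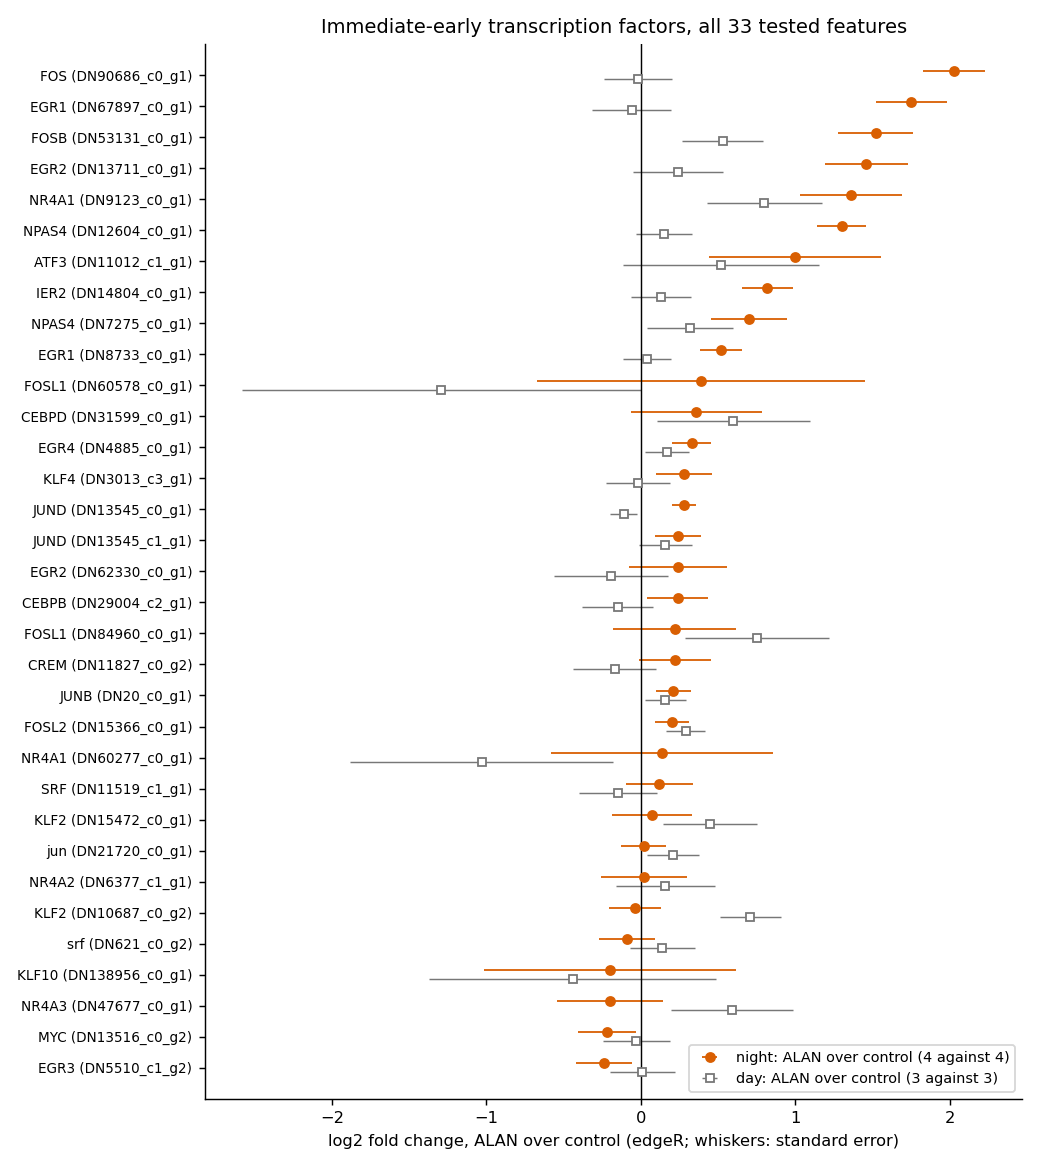
Log2 fold change of ALAN over control for the 33 features of the immediate-early list, at night (filled, 4 against 4 brains) and by day (open, 3 against 3 brains), with standard errors. *FOS* and *EGR1* DN67897 lie at 2.03 and 1.75 at night and at −0.02 and −0.06 by day.

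Genes that act further downstream of activity gave no call. The list of 35 activity-regulated effectors held 0 called features and 25 with a log2 fold change above 0. At an unadjusted p under 0.05, the list had 8 higher (22.9%, against 2.32% of all features) and 0 lower. Its median log2 fold change was 0.2, between 0.14 and 0.25 without single night libraries. The count of 8 became 4 without ALAN night library 2, and summing by gene name gave 5. *TRIB1*, a pseudokinase that guides protein degradation in mammals, was at 15.2, 15.3, 11.1 and 10.1 CPM under ALAN, against 7.16, 9.21, 8.21 and 7.01 CPM in controls (log2 fold change 0.71). *DUSP5*, a nuclear phosphatase that switches off ERK kinases, was at 97.5, 133, 105 and 115 CPM under ALAN, against 75.2, 79.2, 60.0 and 95.1 CPM in controls (log2 fold change 0.54). *PLK2*, a kinase that weakens overactive synapses in rodent neurons, was at 97.4 to 105 CPM against 70.8 to 84.5 CPM (log2 fold change 0.42). For all 3 the groups were apart while the edgeR adjusted p was 0.888 or more.

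Effectors that are secreted or act in the secretory pathway overlapped between groups. *SCG2* (DN8114), a granin of dense-core vesicles, was at 91.9, 119.7, 73.2 and 101 CPM under ALAN, against 75.4, 75.5, 50.7 and 52.3 CPM in controls (log2 fold change 0.61, edgeR adjusted p 0.92). *VGF*, a neuropeptide precursor induced by neurotrophins in mammals, was at 7.1 to 14.1 CPM against 6.21 to 8.63 CPM (log2 fold change 0.57, edgeR adjusted p 0.998). *BDNF*, the activity-dependent neurotrophin, was at 27.4 to 37.4 CPM against 25.2 to 32.2 CPM (log2 fold change 0.16, edgeR adjusted p 1.0). None of the 13 features of neurotrophins and Trk receptors had an unadjusted p under 0.05.

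When the features were grouped by the stem of their name, 749 families held 5 or more tested features. Among the EGR family 4 of 6 features were higher at an unadjusted p under 0.05 (66.7%), the highest share of any such family, and among the SIK family 3 of 6 (50.0%). Over all tested features this share was 2.32%. Salt-inducible kinases are cAMP-regulated and hold back CREB co-activators in mammals, and *SIK1* itself is a CREB target. The 2 *SIK1* features had log2 fold changes of 0.56 (DN4663) and 0.67 (DN35593). *SIK2* DN25079 was at 18.7, 12.7, 13.6 and 14.8 CPM under ALAN, against 11.6, 11.7, 10.1 and 10.2 CPM in controls, with the groups apart (log2 fold change 0.46, edgeR adjusted p 0.909). Across the 749 families, 27 held 2 or more higher features and 28 held 2 or more lower ones. With 3 or more features the counts were 11 and 5, and the most in 1 family were 14 higher and 8 lower. The EGR and SIK families were picked from the data for their share, so the shares are a description. The EGR family overlaps the immediate-early list, so its share is not a separate result.

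The Nogo receptor family supplied the other pair of named calls. Its members are leucine-rich repeat proteins on axons and synapses that bind myelin proteins, and in mammals they limit axon growth and synapse number. *RTN4RL2* DN6473 was at 36.5, 44.4, 34.6 and 33.7 CPM under ALAN, against 16.5, 16.8, 18.7 and 17.8 CPM in controls. Its log2 fold change was 1.1 (SE 0.144, edgeR adjusted p 0.0153), and both groups were tight. *RTN4RL2* DN8334 was at 39.8, 52.6, 48.0 and 42.6 CPM under ALAN, against 28.9, 27.4, 25.8 and 26.9 CPM in controls, which gave a log2 fold change of 0.75 with an SE of 0.113 (edgeR adjusted p 0.0493). These features come from separate assembly components, and their annotation descriptions end in "a" and "b". Summed, the name had a log2 fold change of 0.9 (edgeR adjusted p 0.0112).

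The rest of the Nogo receptor list did not follow. Of its 20 features 2 rose, and none of the other 18 had an unadjusted p under 0.05. *RTN4R*, which encodes the Nogo receptor itself, had a log2 fold change of −0.04, and *RTN4*, which encodes the ligand Nogo, of −0.08. *RTN4R* changed sign with library totals as the scaling (0.04), so no direction is read from it. *MAG*, a myelin ligand, had a log2 fold change of 0.05, and *OMG* DN10868, another ligand, of 0.37 (unadjusted edgeR p 0.0519 across all features). A list of other leucine-rich repeat synaptic adhesion genes held 40 features with 25 names. Of these, 11 had a log2 fold change above 0 (27.5%, against 48.8% of all features) and 0 had an unadjusted p under 0.05. Their median was −0.06. With library totals as the scaling it was 0.02, and 2 features were higher at an unadjusted p under 0.05. Myelin markers summed to 1558 to 2363 CPM in ALAN night and 1767 to 2287 CPM in control night libraries.

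The sixth call was DN21832, whose annotation reads interleukin-1 receptor-like, with an immunoglobulin domain and a TIR domain, the intracellular part that passes the signal on in interleukin-1 and Toll-like receptors. It was at 5.91, 9.75, 9.75 and 10.8 CPM under ALAN, against 1.44, 2.4, 3.31 and 1.75 CPM in controls. Its log2 fold change was 2.02 (SE 0.282, edgeR adjusted p 0.024). The list of the interleukin-1 and Toll-like receptor system was built from gene names and so does not hold the unnamed DN21832. The list's 27 tested features had a median log2 fold change of 0.16. At an unadjusted p under 0.05, 2 were higher (7.41%) and 1 lower (3.7%), against 2.32% and 2.29% of all features. Both counts became 0 without ALAN night library 3, control night library 2 or control night library 4, and the median ran from 0.01 to 0.35 over single left-out libraries. *IL18*, a cytokine of the interleukin-1 family, was at 7.26, 7.32, 7.29 and 4.1 CPM under ALAN, against 5.37, 1.85, 1.73 and 2.05 CPM in controls. ALAN night library 4 and control night library 1 crossed over (log2 fold change 1.24, edgeR adjusted p 0.999). *TRAF6*, an adaptor of this pathway, had a log2 fold change of 0.71, and *IRAK1*, a kinase of this pathway, of −0.68 (edgeR adjusted p 1.0 for both).

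Microglia and leukocyte markers, another place where such receptors are found in mammals, summed to 20.8, 33, 29.7 and 50.1 CPM in ALAN night libraries and 33, 34.1, 23.7 and 13 CPM in control night libraries, so the groups overlapped. Their part in the DN21832 result was not tested. Among 67 tested cytokines, chemokines and receptors, 4 were higher (5.97%, against 2.32% of all features) and 0 lower at an unadjusted p under 0.05. Without ALAN night library 4, without control night library 4 or with the replicate block there was 1 higher and 1 lower. *cxcl12*, a chemokine that guides migrating cells, was at 7.2, 6.59, 6.91 and 57.6 CPM under ALAN, against 7.57, 3.9, 6.02 and 6.03 CPM in controls. ALAN night library 4 alone was high, and the log2 fold change of 1.73 became 0.24 without it. *TGFB2*, a growth factor of the TGF-beta family, was at 209.6 to 303 CPM against 87.8, 216, 199 and 161 CPM, with 1 low control brain (log2 fold change 0.55).

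The 6 calls depended on single libraries to different degrees. *FOS* kept its call in 24 of 27 other settings, *NPAS4* and *RTN4RL2* DN6473 in 19, *EGR1* in 18, DN21832 in 15 and *RTN4RL2* DN8334 in 9. All 6 kept their direction in all 27. All ALAN night brains lay above all controls for each, so leaving out libraries could hardly reverse a direction. Settings without a day library use the same night counts. In the name sum, both *RTN4RL2* features share 1 value. That setting merged *EGR1* and *NPAS4* with their other features. The unnamed DN21832 was joined with nothing, and *FOS* hardly changed (log2 fold change 2.04, against 2.03). The unnamed DN2161, described as c-Fos, was not added to *FOS*. The tallies of kept calls are therefore not on equal terms. With the summed photoreceptor level as a covariate edgeR called 0 features, and *FOS* had a log2 fold change of 2.11 (edgeR adjusted p 0.0506). Without control night libraries 2 and 4, which were high in photoreceptor markers, edgeR also called 0, with *FOS* at a log2 fold change of 2.12 (edgeR adjusted p 0.0995). The edgeR count was 1 without ALAN night library 3, control night library 1 or control night library 2, and that 1 was *FOS* each time. A fit on the 8 night libraries alone called 4 features, with *NPAS4* (edgeR adjusted p 0.112), DN21832 (0.292) and *RTN4RL2* DN8334 (0.279) not among them. Those 4 were *FOS*, *EGR1* DN67897, *RTN4RL2* DN6473 and a feature outside the 6. The count was 3 without ALAN night library 2, ALAN night library 4 or control night library 4.

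Named features ranked next by p were not called by edgeR or limma-voom. DESeq2 called *ITM2C* DN13098 (DESeq2 adjusted p 0.000704), *gpr3* (0.0121), *HADHA* (0.0121), *HTRA1* (0.0258) and *MGARP* (0.03). *ITM2C*, a membrane protein of the BRICHOS family, was at 99.8, 89.2, 81.6 and 72.5 CPM under ALAN, against 46.5, 46.1, 60.6 and 52.7 CPM in controls (log2 fold change 0.74, edgeR adjusted p 0.207). The other *ITM2C* feature (DN10239) had a log2 fold change of −0.09, and the name summed had −0.02. *gpr3*, a receptor that raises cAMP without a ligand, was at 58.0 to 75.9 CPM against 25.5 to 46.5 CPM (log2 fold change 0.88, edgeR adjusted p 0.562). *HADHA*, a subunit of the mitochondrial fatty acid oxidation complex, was at 61.4 to 93.9 CPM against 44.2 to 54.1 CPM (log2 fold change 0.68, edgeR adjusted p 0.562). *HTRA1*, a secreted serine protease, and *MGARP*, a mitochondrial protein, stood at 0.52 and 0.88 on the log2 fold change scale (edgeR adjusted p 0.771 and 0.82), and for all 5 of these features the groups were apart.

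A pair of larger fold changes in this set, of *CENPK* and *BTBD11*, rested on some of the ALAN brains only. DESeq2 called both (DESeq2 adjusted p 0.0019 and 0.00659). *CENPK*, a kinetochore protein, was at 7.85, 11.7, 0.663 and 15.6 CPM under ALAN, against 0.347, 0.701, 1.45 and 0.599 CPM in controls, so ALAN night library 3 was at the control level (log2 fold change 3.51). *BTBD11* was at 0.591, 7.14, 9.8 and 0.659 CPM under ALAN, against 0.404, 0, 0.28 and 0.257 CPM in controls. ALAN night libraries 2 and 3 alone were high (log2 fold change 4.25). Outside the naming rule, *ETV5*, a transcription factor downstream of ERK signalling, was at 245, 174, 196 and 177 CPM under ALAN, against 129, 146, 136 and 148 CPM in controls (log2 fold change 0.5, edgeR adjusted p 0.876, DESeq2 adjusted p 0.0497).

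The core clock was then examined, since light at night resets the clock in many animals. Of 42 clock features 41 were tested, 16 with a log2 fold change above 0, and edgeR called none. DESeq2 called *Cry2* DN1907_c0_g1, higher under ALAN (DESeq2 adjusted p 0.000704). At an unadjusted p under 0.05, 3 were higher (7.32%, against 2.32% of all features) and 0 lower. *Cry2* DN1907_c0_g1, a cryptochrome that represses the clock, was at 112, 93.1, 105 and 93.1 CPM under ALAN, against 57.4, 65.5, 78.8 and 72.7 CPM in controls, with no overlap (log2 fold change 0.56, SE 0.104, edgeR adjusted p 0.22). *CRY1*, a neighbouring gene model of the same assembly component whose reads may have been divided with it, was at 42.7 to 59.7 CPM against 28.9, 32.1, 48.1 and 29.6 CPM. Control night library 3 overlapped the ALAN range (log2 fold change 0.6, edgeR adjusted p 0.92). *PER2* DN4896_c1_g1, a light-inducible period gene in zebrafish, was at 15, 11.9, 12.8 and 9.88 CPM against 5.43, 4.9, 9.66 and 9.41 CPM (log2 fold change 0.75, edgeR adjusted p 0.92).

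Nuclear receptors of the stabilising clock loop differed among themselves. *NR1D1*, which encodes REV-ERB-alpha, was at 64.6, 87.8, 67.8 and 88.0 CPM under ALAN, against 131, 153, 95.6 and 115 CPM in controls. All ALAN brains were below all controls (log2 fold change −0.68, SE 0.33, unadjusted edgeR p 0.0585 across all features). The *NR1D2* features, for REV-ERB-beta, overlapped between groups, with log2 fold changes of −0.01 (DN1975; 0.06 with library totals as the scaling) and 0.13 (DN9051). An unnamed NR1D-like feature, DN6756, was at 25.8, 60.1, 37.2 and 48.5 CPM against 98.9, 82.4, 62.8 and 68.2 CPM, also with no overlap (log2 fold change −0.86, edgeR adjusted p 0.888). DN8914, described as ROR-beta-like and thus of the opposing activator family, was at 8.44, 5.72, 6.34 and 4.86 CPM against 4.04, 3.55, 4.53 and 4.4 CPM (log2 fold change 0.61, edgeR adjusted p 0.88). *PER1* and *PER3* had log2 fold changes of −0.15 and 0.15. The list's median was −0.05. Among 12 tested melatonin and non-visual opsin features, *RGR*, a retinal photoisomerase, was at 20.8 to 23.1 CPM against 15.3 to 18.2 CPM (log2 fold change 0.37), and the other 11 had an unadjusted p above 0.05.

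No chaperone or stress peptide was called. Of 33 heat shock proteins and co-chaperones, 23 had a log2 fold change above 0. At an unadjusted p under 0.05, 4 were higher (12.1%, against 2.32% of all features) and 0 lower. The 4 became 2 without control night library 2 or 4, and 9 with library totals as the scaling. *DNAJB5*, an HSP40 co-chaperone, was at 248, 251, 294 and 223 CPM under ALAN, against 118, 128, 209 and 129.7 CPM in controls. Control night library 3 was far above the other controls but still below the ALAN brains (log2 fold change 0.8, edgeR adjusted p 0.888). *HSP90AB1*, the constitutive HSP90, was at 781, 902, 775 and 941 CPM against 591, 741, 737 and 651 CPM (log2 fold change 0.32). *MANF*, a secreted protein of the endoplasmic reticulum stress response outside these lists, was at 14.9, 13.7, 12.4 and 14.1 CPM against 10.5, 7.71, 9.52 and 7.91 CPM (log2 fold change 0.63, edgeR adjusted p 0.865).

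Of 20 stress axis features 2 were higher and 0 lower at an unadjusted p under 0.05 (2.32% of all features were higher). The 2 became 1 with the replicate block, and without ALAN night library 1, 2 or 3 or control night library 2 or 4. Without ALAN night library 2, 1 feature was also lower. The groups were apart with ALAN higher in 0 features of the list and with ALAN lower in 1. *UCN3*, a urocortin that binds CRH receptors, was at 136, 79.6, 89.0 and 93.8 CPM under ALAN, against 45.4, 53.0, 81.4 and 60.7 CPM in controls (log2 fold change 0.73, edgeR adjusted p 0.998). *CRH*, which starts the stress hormone cascade, was at 36.8, 48.4, 44.7 and 41.9 CPM against 40.3, 28.2, 32.0 and 33.1 CPM (log2 fold change 0.36, edgeR adjusted p 1.0). In both, 1 pair of brains crossed between the groups. Of 22 feeding, sleep and arousal peptides, *AGRP*, an appetite-raising peptide, was the 1 feature higher at an unadjusted p under 0.05 (4.55%, against 2.32% of all features). It was at 16.3, 19.9, 15.7 and 8.66 CPM against 5.95, 12.3, 7.88 and 7.78 CPM (log2 fold change 0.84). None of 12 monoamine synthesis and transport features had an unadjusted p under 0.05.

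In the oxidative phosphorylation list, the features with the smallest p encode subunits of succinate dehydrogenase (complex II). *SDHA*, the catalytic subunit, was at 199.9, 205, 246 and 189 CPM under ALAN, against 179, 167, 175 and 165 CPM in controls (log2 fold change 0.29, edgeR adjusted p 0.92). *SDHB*, the iron-sulphur subunit, was at 140.4, 59.9, 119 and 84.1 CPM against 62.4, 53.3, 51.4 and 57.9 CPM, with ALAN night library 2 inside the control range (log2 fold change 0.84, edgeR adjusted p 0.888, DESeq2 adjusted p 0.046). *SDHAF2*, which inserts the flavin cofactor into SDHA and is outside the list, was at 143 to 166 CPM against 117 to 124 CPM (log2 fold change 0.4, edgeR adjusted p 0.888). Of the 76 features of the list, 2 were higher at an unadjusted p under 0.05 (2.63%, against 2.32% of all features) and 0 lower. The list's median log2 fold change was −0.02. The 2 higher became 6 with library totals as the scaling, and 4 without control night library 1. The groups were also apart, with ALAN higher, for *atp5g3* (log2 fold change 0.17), of ATP synthase, and *UQCRC1* (log2 fold change 0.12), of complex III, both named after their values were seen.

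Few receptor and channel features had an unadjusted p under 0.05, set beside 2.32% higher and 2.29% lower over all features. Of 89 glutamate receptor features, 1 was higher (1.12%) and 0 lower. Of 41 GABA and glycine receptor features, 1 was higher and 1 lower (2.44% each). Of 76 voltage-gated sodium and calcium channel features, 1 was higher (1.32%) and 2 lower (2.63%). Of 122 potassium channel features, 1 was higher (0.82%) and 4 lower (3.28%). The log2 fold change was above 0 in 43.8% of the glutamate receptor and 41.5% of the GABA and glycine receptor features. It was above 0 in 32.9% of the sodium and calcium and 50.0% of the potassium channel features, against 48.8% of all features. *KCNK4*, a leak channel, was at 1.34, 1.1, 1.56 and 2.94 CPM under ALAN, against 3.35, 3.55, 5.55 and 6.2 CPM in controls, with no overlap (log2 fold change −1.43, edgeR adjusted p 0.888). *KCNAB2* had a log2 fold change of 1.19, while *KCNH4* and *KCNAB1* had −1.15 and −0.61, and these 3 overlapped between groups. *CACNA1A* DN956_c2_g1, a feature named after a neuronal calcium channel, was at 2.9, 4.9, 3.74 and 4.81 CPM against 3.99, 24.1, 8.35 and 46.4 CPM. The high control libraries 2 and 4 are those with high photoreceptor markers, and the log2 fold change of −2.34 became −0.58 without them. With counts summed by gene name and all libraries, *CACNA1A* had a log2 fold change of −0.18 (unadjusted edgeR p 0.101).

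The 25 gene lists were chosen with earlier results of these data known, so their shares are a description. Across them, the immediate-early and effector lists had the highest shares of features higher at an unadjusted p under 0.05. In the other 23 lists this share reached at most 12.1%, in the heat shock list, and the share of lower features at most 3.7%, with medians between −0.18 and 0.17. Features called by edgeR were members of 2 lists, the immediate-early and the Nogo receptor list. Lists were built from gene names, so unnamed features such as DN21832, DN2161, DN6756 and DN8914 could enter none. Few features passed an unadjusted p under 0.05 in axon guidance (119 features, 1 higher and 1 lower), ribosomal proteins (73, 1 higher and 2 lower), proteasome subunits (46, 0 and 0) and sterol synthesis (27, 0 higher and 1 lower). The log2 fold change was above 0 in 34.5% of the axon guidance features, 17.8% of the ribosomal, 37.0% of the proteasome and 55.6% of the sterol features, against 48.8% of all features tested. With library totals as the scaling, the median of the axon guidance list was 0.0 and that of the ribosomal list −0.0, against −0.08 for each. Cell cycle genes (39, 1 higher and 0 lower) had a median log2 fold change of −0.18, which became −0.42 without ALAN night library 4 and 0.07 without control night library 4. Those for cAMP and calcium signalling to CREB (80, 3 higher and 1 lower) and antioxidant enzymes (32, 2 higher and 0 lower) had medians of −0.03 and 0.03.

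**Figure D5:**
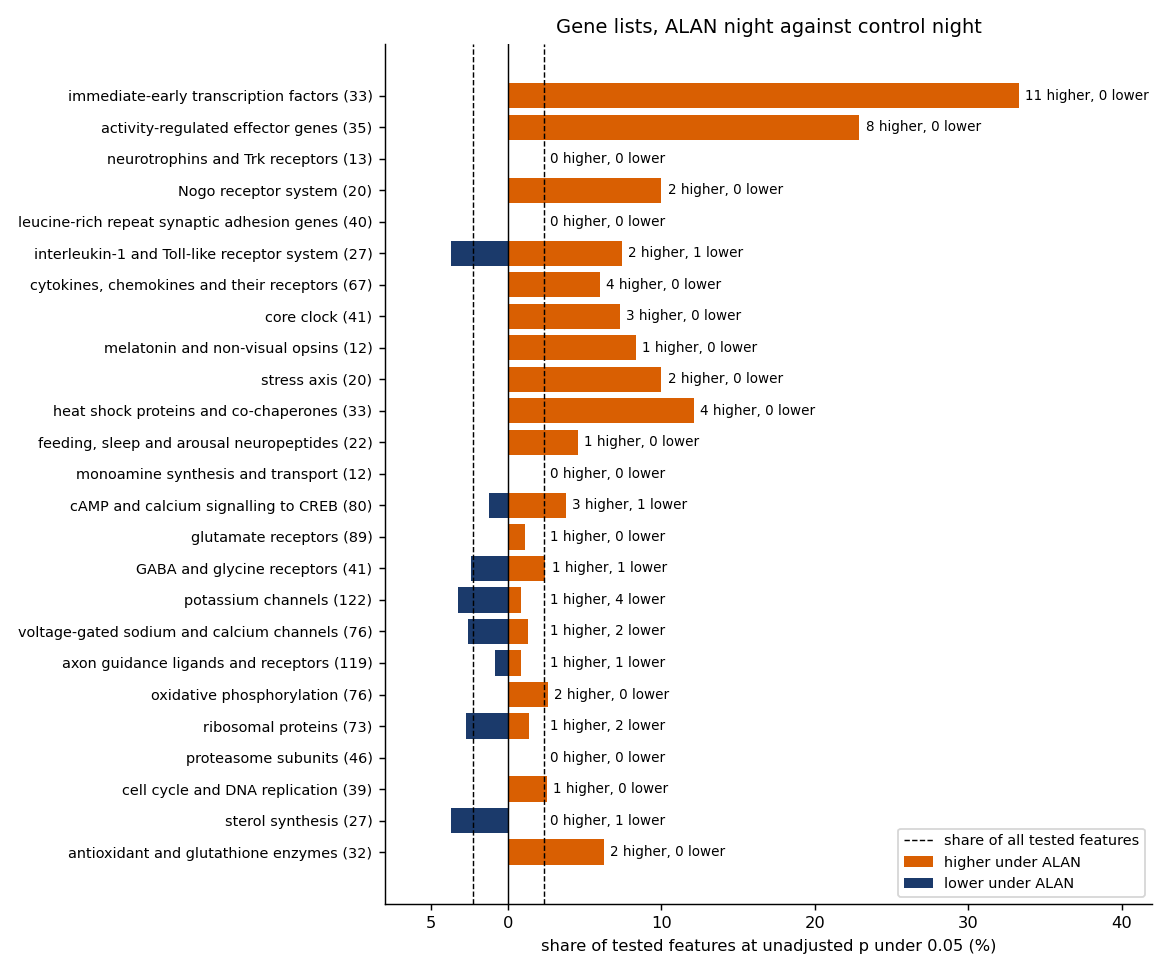
Share of the tested features of 25 gene lists with an unadjusted p under 0.05 at night, higher (right) or lower (left) under ALAN, with the number of tested features beside each name. The immediate-early list reaches 33.3% and the effector list 22.9% on the higher side, against 2.32% of all tested features (dashed line). The lists were chosen with earlier results of these data known.

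None of the features lower in ALAN night brains passed the adjusted threshold in edgeR. DESeq2 called 13 lower features. Among them were *RABEP1* (DESeq2 adjusted p 0.0144), *KCTD15* (0.0446), *KLHL36* (0.0143), *APOH* (0.0215) and *OPN1SW* (0.0241). *RABEP1*, which encodes an effector of the endosomal GTPase RAB5, was at 8.12, 7.87, 7.53 and 9.37 CPM under ALAN, against 14.3, 10.6, 17.2 and 15.3 CPM in controls (log2 fold change −0.8, SE 0.174, edgeR adjusted p 0.562). *KCTD15*, a BTB domain protein, was at 27.5 to 32.2 CPM against 35.5 to 42.9 CPM (log2 fold change −0.37, edgeR adjusted p 0.888). Both had groups that did not overlap, as did 246 lower features in all (1.18%). *SORL1*, a sorting receptor, was at 12.5 to 20.3 CPM against 19.6 to 41.9 CPM with an overlap (log2 fold change −1.01, edgeR adjusted p 0.88).

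Other lower-ranked features varied among the control brains. *KLHL36* was at 8.12, 10.9, 14.3 and 9.37 CPM under ALAN, against 329.5, 116, 99.5 and 7.7 CPM in controls, so control night library 4 was at the ALAN level (log2 fold change −3.69, edgeR adjusted p 0.865). Photoreceptor genes followed the libraries that stood apart. *arr3*, cone arrestin, had a log2 fold change of −3.98, which became −0.12 without control night libraries 2 and 4, and *OPN1SW*, a cone opsin, had −6.83, which became −0.57. These opsin and arrestin values rested on control night libraries 2 and 4. Of the 34 photoreceptor markers, 13 were lower at an unadjusted p under 0.05 (38.2%, against 2.29% of all features), 5 without control night library 4, and 0 without both libraries.

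Some features of plasma and other secreted proteins were also lower. Of 10 tested liver markers, 7 were lower at an unadjusted p under 0.05 (70.0%, against 2.29% of all features), with a median log2 fold change of −1.97. The 7 became 2 without ALAN night library 4 or control night library 3, 3 without control night library 1, and 4 without ALAN night library 1 or 2. *HPX*, the plasma haem carrier, was at 0.108, 0.595, 0.805 and 0.0507 CPM under ALAN, against 11.8, 0.25, 5.51 and 2.35 CPM in controls, with control night library 2 among the ALAN values (log2 fold change −3.62, edgeR adjusted p 0.909). *APOH*, a plasma apolipoprotein, was at 0 to 0.595 CPM against 4.33, 0.6, 3.13 and 2.05 CPM (log2 fold change −2.86, edgeR adjusted p 0.888). *SERPINA12*, a secreted protease inhibitor, was at 4.09, 4.26, 7.48 and 1.62 CPM against 37.5, 2.55, 31.4 and 15.2 CPM (log2 fold change −2.31). *HPX* is one of the liver markers, while *APOH* and *SERPINA12* are outside that list. By day *HPX*, *APOH* and *SERPINA12* were also lower under ALAN, by log2 fold changes of −4.94, −3.21 and −3.85. Of 22 tested muscle markers 5 were lower at an unadjusted p under 0.05 (22.7%, against 2.29% of all features), with a median log2 fold change of −0.16. For 4 of the 22 the groups were apart with ALAN lower (18.2%, against 1.18% of all features). The 5 became 1 without ALAN night library 3 or control night library 3, 2 without ALAN night library 2 and 3 without control night library 4.

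The day brains gave the same treatment contrast with the lights on in both groups. By day edgeR called 1 unnamed feature (0.00481%), with an unadjusted p under 0.05 for 1439 features (6.92%), 670 higher (3.22%) and 769 lower (3.7%). *FOS* was at 49.2, 58.6 and 40.9 CPM in ALAN day brains, against 42.5, 44.4 and 64.0 CPM in control day brains (log2 fold change −0.02). The ALAN night brains, at 40.1 to 65.1 CPM, thus fell within nearly the same range as both day groups, and the control night brains were the low group. *EGR1* DN67897 and *NPAS4* DN12604 had day log2 fold changes of −0.06 and 0.15. *RTN4RL2* DN8334 was also higher by day, at 80.2, 80.9 and 66.9 CPM in ALAN day brains, against 52.4, 63.6 and 53.2 CPM in control day brains (log2 fold change 0.43, unadjusted edgeR p 0.00532 across all features).

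Whether the night effect differed from the day effect was tested by the interaction. Here edgeR called 0 features (0.0%; smallest adjusted p 0.121), while limma-voom called 0 and DESeq2 56. At an unadjusted p under 0.05 there were 1278 features (6.15%), of which 692 were positive (3.33%) and 586 negative (2.82%). On the log2 scale, *FOS* had an interaction of 2.06 (unadjusted edgeR p 8.17e-06 across all features), *EGR1* DN67897 1.81 (p 0.000129), *NPAS4* DN12604 1.15 (p 0.000303), DN21832 1.54 (p 0.00269) and *RTN4RL2* DN6473 0.84 (p 0.00171). *RTN4RL2* DN8334 had 0.32 (p 0.0869). These features were picked by their night difference, which is part of the interaction, so their unadjusted interaction p-values are a description. Of the 33 immediate-early features 8 had a positive and 1 a negative interaction at an unadjusted p under 0.05.

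The day, night and interaction counts of some lists were set side by side, with no test of a difference between lists. Over all features, 3.33% had a positive and 2.82% a negative interaction at an unadjusted p under 0.05. At that threshold 2.32% of all features were higher at night, and by day 3.22% were higher and 3.7% lower. Among the 33 heat shock features, 8 had a positive and 0 a negative interaction at an unadjusted p under 0.05. Of the 33, 4 were higher at night (12.1%) and 7 lower by day. Among the 76 oxidative phosphorylation features, a larger list, the interaction counts were 8 and 0. Of the 76, 2 were higher at night (2.63%) and 7 lower by day. The 41 clock features had 1 positive and 7 negative interactions, with 3 higher at night (7.32%) and 7 higher by day. *NR1D1* was lower at night (log2 fold change −0.68) and higher by day (log2 fold change 1.83), an interaction of −2.51 (unadjusted edgeR p 0.000782 across all features). *MANF* was at 11.6, 11.9 and 9.19 CPM in ALAN day brains, against 17.4, 24.2 and 21.3 CPM in control day brains (log2 fold change −0.94), the opposite of its night difference, with an interaction of 1.57 (unadjusted edgeR p 1.16e-05 across all features). None of these interactions passed the adjusted threshold in edgeR.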

How the data were processed

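Per the labels' protocols, messenger RNA of single brains was sequenced from non-stranded libraries with molecular identifiers. The authors' deposited table holds expected counts (estimated counts that need not be whole). Per the submitters' processing notes, Trimmomatic 0.39, RSEM and Bowtie2 were used; the sources used here do not say whether molecular identifiers were collapsed. Per their names the features come from a Trinity assembly, and gene names come from eggNOG-mapper 2.1.7 per the file headers; the authors' deposited bit score of each match was used only to describe it. Of 21805 features, 18198 had a name (12751 names, 3775 shared), so near-identical copies may share reads.

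Counts were rounded, filtered (filterByExpr, minimum count 10, minimum total 15, by group) and TMM-scaled. edgeR 4.0.16 (glmQLFit, glmQLFTest; R 4.3.3) fitted 1 mean per group over the 14 libraries, so night and day contrasts share the estimate of spread (residual df 10). Adjusted p-values are Benjamini-Hochberg over 20782 features, with a threshold of 0.05; unadjusted p-values come from the same fit. SE is the absolute log2 fold change over the square root of F. DESeq2 1.42.0, limma 3.58.1 (voom), other scalings and filters, name sums, a replicate block, marker covariates and left-out libraries were alternatives. The script was tested on simulated data. Each fish was treated as independent.

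Features named were all calls, features sharing their names, the 12 next named features by p in each direction with a mean of at least 1 CPM, and the leading members of each list; others are said to be outside this rule. Members and lists were chosen with earlier results of these data known. The 3 stranded libraries were not analysed here. Some features that the naming rule selects are not reported here.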

Additional observations from a re-analysis of the deposited data

Results flagged for a closer look

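Within groups of 4 night brains, a single value stood apart in 11 of the 166 groups checked for the named features. Chance alone gives about 1 in 20, which is near this share, and the named features were partly chosen by their values. A value was flagged by its gap to the nearest value over the range of its group. A small gap is therefore flagged where the other 3 lie close together. *IER2* was at 14.7 CPM in control night library 1, against 25.1 to 27.1 CPM in the other controls. *HSPA9*, the mitochondrial HSP70, was at 92.3 CPM in control night library 1, against 78.2 to 80.5 CPM in the other controls. *CRYAB*, a small heat shock protein, was at 28.2 CPM in ALAN night library 2, against 30.0 to 30.3 CPM in the other ALAN brains, and at 29.8 CPM in control night library 1, against 19.6 to 20.4 CPM in the other controls. *IL18* was at 4.1 CPM in ALAN night library 4, against 7.26 to 7.32 CPM in the other ALAN brains, and at 5.37 CPM in control night library 1, against 1.73 to 2.05 CPM in the other controls. *cxcl12* was at 57.6 CPM in ALAN night library 4, against 6.59 to 7.2 CPM in the other ALAN brains.

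In control night library 3, *CRY1* was at 48.1 CPM (28.9 to 32.1 CPM in the other controls) and *DNAJB5* at 209 CPM (118 to 129.7 CPM in the other controls). In control night library 4, *arr3* was at 116 CPM (1.73 to 15.3 CPM in the other controls) and *OPN1SW* at 37.1 CPM (0.0933 to 4.3 CPM in the other controls). That library also had the highest summed photoreceptor markers, 2115 CPM.

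In 5 of the 83 named features checked, all ALAN brains lay on one side of the controls at night and on the opposite side by day. Features were named partly by their night p, and the share over all tested features was not computed. Their interactions on the log2 scale were −1.2 for *RABEP1*, −1.39 for the NR1D-like feature DN6756, −2.51 for *NR1D1*, 0.8 for the ROR-beta-like feature DN8914 and 1.57 for *MANF*. The unadjusted edgeR p-values across all features were 0.000534, 0.00191, 0.000782, 0.00286 and 1.16e-05, and no interaction passed the adjusted threshold in edgeR.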

How the results depend on the processing

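The count of 6 features at night was 41 with DESeq2 (28 higher, 13 lower), 0 with the photoreceptor covariate, 1 with photoreceptor, pituitary and muscle covariates (*CCDC150*, lower), 3 with counts summed by gene name and 0 without control night libraries 2 and 4. The 8 night libraries alone gave 4, which left out *NPAS4*, DN21832 and *RTN4RL2* DN8334 (edgeR adjusted p 0.112, 0.292 and 0.279) and took in a feature outside the 6. The setting without both control libraries was added after the data were seen. Leaving out 1 library at a time gave 1 to 8 calls at night, and 0 to 6 by day. The interaction count of 0 was 56 with DESeq2 and 0 in every other setting run. The day count of 1 was 134 with DESeq2, 2 with library totals alone, 2 with name sums, 2 without control night libraries 2 and 4, and 0 with a filter of 1 CPM, the replicate block, the photoreceptor covariate or the 3 covariates. The causes were not tested. Among named features, *ITM2C* DN13098 reversed to a log2 fold change of −0.02 with name sums. The other reversals were of uncalled values near 0. *NR1D2* DN1975 had log2 fold changes of 0.06 with library totals and 0.07 with name sums, and −0.08 to 0.1 without single libraries. *RTN4R* had 0.04 with library totals, 0.01 with the photoreceptor covariate, 0.04 with the 3 covariates, 0.05 without control night libraries 2 and 4, and −0.14 to 0.03 without single libraries. *MAG* had −0.05 to 0.15 without single libraries, and *ITM2C* DN10239 had 0.02 with the 3 covariates. The median log2 fold change of all features was 0.071 with library totals, against −0.007, and closer to −0.007 in every other setting run.

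The replicate numbers were not treated as pairs in the main fit, and the labels do not say what they mark. With few brains per group, the correlations cannot decide whether same-numbered fish shared a colony or day. Same-numbered ALAN and control night brains correlated in their deviations from the group means by 0.103, −0.035, 0.00517 and 0.0012, and the replicate block again gave 6 calls at night, with *EGR2* gained and *RTN4RL2* DN8334 lost. The sources give no colony, so p-values measure the spread between brains only.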
